A study of Homo sapiens with 15 samples.

Results

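The comparison described here is that of HCT116 cells exposed for 72 h to the Apulia extract (AE) with untreated HCT116 cells, across all genes of the deposited table that had enough signal to be tested. AE is a freeze-dried extract of the waste of olive oil production that is rich in hydroxytyrosol (HTyr), and it was given at 0.0154 mg/mL. A gene was a member when it reached at least 1 TPM (an abundance per transcript length, as a share of its library) in at least 3 of the 15 libraries of the series, a rule that uses no group label. It took in 14899 of 60664 genes, and the other 45765 are not described. Each group had 3 libraries, AE 1 to 3 and untreated 1 to 3. The rest of the series holds 9 libraries of the same cells exposed at the same concentration and for the same time to the Tuscany extract (TE), to the Sicily extract (SE) or to pure HTyr. HCT116 is an established colorectal carcinoma line, here in its wild-type form, so all groups share the genetic changes of 1 tumour and hold no other cell type by design. The concentration was chosen by the study from the growth response of this line to HTyr, and the sources used here name no vehicle for the untreated cells. The labels describe the 3 libraries of each group as biological repeats but do not say how the cultures were separated, so a p-value here reflects only the spread among these samples, which may be technical.

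HTyr is a small phenol with a catechol ring, the group that makes olive phenols readily oxidized. Cells that meet such compounds use the transcription factor NFE2L2, which KEAP1 holds back until its cysteines are modified, to switch on enzymes that reduce quinones, make glutathione and supply NADPH. Flat aromatic compounds can instead bind the aryl hydrocarbon receptor, which drives CYP1A1. Proliferation is read at the RNA level through a pair of programmes, the E2F genes that copy DNA in S phase and the later genes that condense, attach and separate chromosomes in mitosis, and the p53 target CDKN1A acts as a brake on both. The actin cytoskeleton has its own loops: free actin holds back the cofactor of SRF, and tension lets YAP enter the nucleus and drive genes such as CCN1 and CCN2. In colorectal cells these programmes run beside WNT, ERK and TGF-beta signalling.

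The libraries fell apart by group and not by replicate number. Spearman correlations across the tested genes, which are not independent replicates, were 0.977 to 0.982 among the AE libraries, 0.979 to 0.980 among the untreated libraries and 0.949 to 0.965 between the groups. TPM of a library add up to a fixed total, so the depth of each library is unknown and every change is relative to the rest of that library. Genes at 1 TPM or more numbered 14034, 13858 and 13839 with AE, against 13782, 13879 and 13904 in untreated cells. The epithelial marker EPCAM had 339, 325 and 317 TPM with AE, against 308, 346 and 326 TPM in untreated cells, values that overlap. VIL1, CDX1 and LGALS4, markers of mature colon epithelium, stayed at or under 1.30 TPM in all 6 libraries. The leukocyte markers PTPRC, CD3D, MS4A1 and NKG7 were at or under 0.03 TPM, the fibroblast genes COL1A2, LUM, PDGFRA, THY1 and POSTN were listed at 0, and so were the endothelial genes CDH5, EMCN, CLDN5 and ERG. Of the same lists, CD68 had 2.88, 1.58 and 2.74 TPM with AE, against 16.4, 17.3 and 16.8 TPM in untreated cells, COL1A1 4.06 to 8.24 TPM with AE and 5.83 to 7.95 TPM in untreated cells, ACTA2 3.76 to 5.44 and 5.05 to 7.12 TPM, and ESAM 3.39 to 3.94 and 3.54 to 4.18 TPM.

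With AE, 1601 genes rose and 865 fell against untreated cells. A gene counted as changed at an adjusted p under 0.05 (limma on log2(TPM + 0.5), Benjamini-Hochberg over 14899 genes) and a fold change over 1.5 in either direction on that scale. The changed genes were 16.6% of those tested, with 10.7% higher and 5.81% lower, and these shares are the background for every gene group described here. Without the fold threshold, limma gave 3846 of the 14899 genes as higher and 2079 as lower at an adjusted p under 0.05. An unadjusted p under 0.05 was reached by 7098 genes. These are the background for list counts at those levels. The 3 AE libraries and the 3 untreated libraries did not overlap for 7280 genes, 48.9% of those tested, and 1566 of the risers and 841 of the fallers were among them. The median log2 fold change over all genes was 0.09, that of the risers 0.82 and that of the fallers -0.84. Log2 fold changes passed 1 for 437 changed genes and fell below -1 for 278, and they passed 2 for 14 and fell below -2 for 24. The excess of risers depended on scaling. Risers were 64.9% of the changed genes on TPM, against 50.8% (1200 higher and 1160 lower) when libraries were rescaled by median ratios and 53.1% after quantile normalization. No gene was called in the opposite direction under either.

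**Figure D1:**
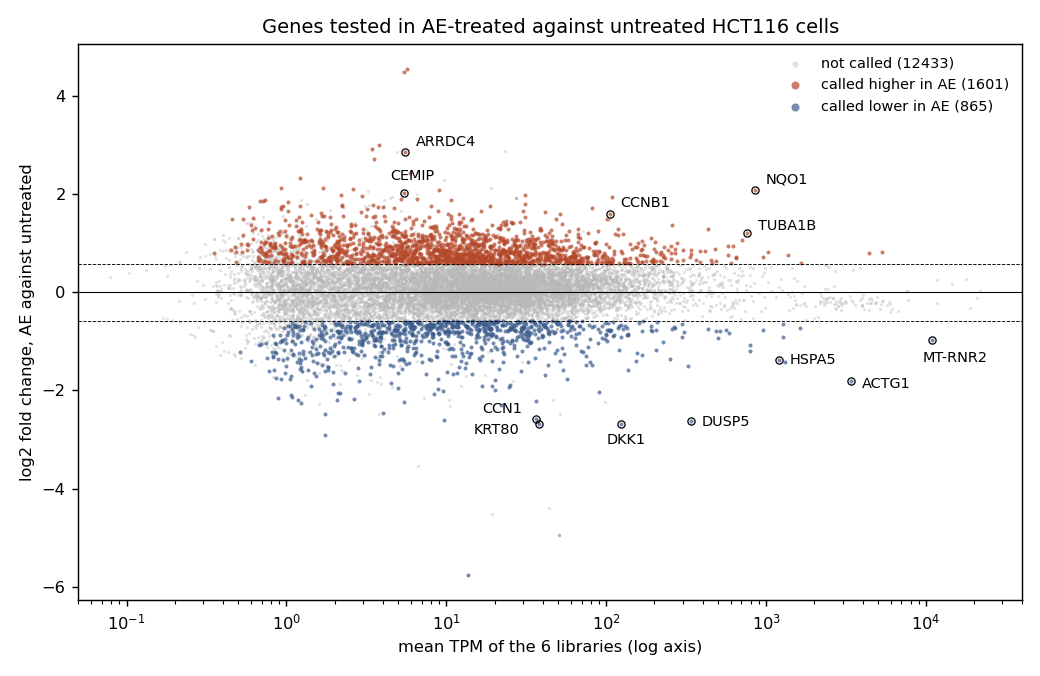
Log2 fold change of AE over untreated cells (vertical axis, on the log2(TPM + 0.5) scale) against mean TPM of the 6 libraries (horizontal log axis) for each of the 14899 tested genes, with called genes coloured (red higher, blue lower) and members the text describes labelled. The 1601 risers and 865 fallers are spread over all levels, with ARRDC4 and NQO1 far above and DKK1, DUSP5 and KRT80 far below the median of 0.09.

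The filter sat at a low level. The 355 genes that just passed, with 1 TPM in exactly 3 libraries, had a median of 0.53 TPM, and the 521 that just failed, with exactly 2, had 0.34 TPM. Among tested genes 110 reached 1 TPM in all 3 AE libraries and in no untreated one, and 99 did the reverse. Such genes entered through the group in which they were high. Protein-coding genes made up 1358 of the risers and 735 of the fallers (of 12367 tested), lncRNAs 177 and 82 (of 1413) and pseudogenes 51 and 40 (of 870). Risers had a median of 7.45 TPM in untreated cells and fallers 12.1 TPM, beside 11.8 TPM over all tested genes. The canonical transcript had a median length of 2458 bases in risers, 3255 in fallers and 2843 over all tested genes, and a median GC content of 48.5%, 51.3% and 48.9%.

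Of the 8 most abundant genes that rose, NQO1, the quinone reductase that is the classic NFE2L2 target, had the largest log2 fold change. NQO1 (ENSG00000181019, chr16:69706996-69726668, GRCh38) had 1384, 1317 and 1399.7 TPM with AE, against 327, 328 and 316 TPM in untreated cells. The libraries of each group were close to each other, and all AE libraries were far above the untreated ones. The log2 fold change was 2.08 (SE 0.0473, adjusted p = 1.01e-11). Of 34 genes listed as NFE2L2 and its targets 32 were tested. Of these, 12 rose and 1 fell, beside 10.7% higher and 5.81% lower over all genes. Their median log2 fold change was 0.48 against 0.09 over all genes. Between the groups 27 of the 32 did not overlap, beside 48.9% of all tested genes.

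HMOX1, which breaks down haem, had 44.8, 44.1 and 38.04 TPM with AE, against 16.8, 15.3 and 14.2 TPM in untreated cells (log2 fold change 1.43, SE 0.0896, adjusted p = 9.95e-08). GCLM, the modifier subunit of the enzyme that commits cysteine to glutathione, had 36.2, 37.5 and 38.04 TPM with AE, against 16.6, 11.7 and 12.8 TPM in untreated cells (log2 fold change 1.43, SE 0.124, adjusted p = 1.3e-06). Both genes were separated by group without overlap. The pentose phosphate enzyme PGD (log2 fold change 0.83), the NADPH-forming malic enzyme ME1 (0.79), the cystine carrier SLC7A11 (1.05), the epoxide hydrolase EPHX1 (0.90), the export pump ABCC2 (1.16) and PIR (1.03) rose too. The catalytic subunit GCLC had 120.1, 95.1 and 93.7 TPM with AE, against 82.9, 73.6 and 66.3 TPM in untreated cells, also without overlap, but its log2 fold change of 0.46 (adjusted p = 0.0108) was under the fold threshold. The ferritin chains FTH1 and FTL, which store iron, were at 4540.04 ± 276 and 2773 ± 54.2 TPM with AE, against 3228 ± 211 and 1897 ± 103.8 TPM in untreated cells (SD, n = 3 each), and with log2 fold changes of 0.49 and 0.55 they missed it as well. NFE2L2 mRNA itself differed by 0.22 (adjusted p = 0.016) and was not called. The single faller was MAFF, a small MAF protein that pairs with NFE2L2 or acts without it, with 11.6, 12.1 and 12.5 TPM with AE, against 32.95, 30.8 and 35.1 TPM in untreated cells (log2 fold change -1.41).

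The promoter of ME1 is shown because its gene rose and because the core of the element that NFE2L2 binds can be read in it. The 150 bases before its RefSeq start (GRCh38.p14, chr6:83431052-83431201, minus strand) are printed 5′ to 3′, with the core in capitals.
ME1: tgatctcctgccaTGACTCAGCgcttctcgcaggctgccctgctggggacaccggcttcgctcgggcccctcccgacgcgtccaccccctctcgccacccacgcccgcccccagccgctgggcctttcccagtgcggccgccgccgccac
The letters TGACNNNGC, searched on both strands of the 250 bases before to 50 bases after each start, were in 15.4% of the 10543 tested genes with a RefSeq promoter, in 15.5% of the risers and 14.9% of the fallers, and in 6 of 23 promoters of the NFE2L2 list (26.1%). The promoter of NQO1 held no match in this window. The printed match in ME1 overlaps an AP-1 site, TGACTCA. Another match in ME1, GCACCGTCA as read on the same strand, lies 11 to 19 bases after the start, outside the printed bases. A match is a description of letters, not a site or a cause.

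Other genes that handle foreign compounds rose from lower levels. CYP1A1, the oxidase that marks aryl hydrocarbon receptor activity, had 3.56, 3.67 and 4.11 TPM with AE, against 0.39, 0.81 and 0.6 TPM in untreated cells (log2 fold change 1.98, SE 0.169, adjusted p = 1.13e-06). The groups were apart, although both were low. AHRR, the repressor that the receptor induces, had 5.37, 4.59 and 4.55 TPM with AE, against 1.37, 1.94 and 0.07 TPM in untreated cells, and TIPARP, another target, 44.7, 39.5 and 36.9 against 16.8, 22.3 and 19.2 TPM. Counting NQO1, which both lists hold, 5 of 8 tested genes of the receptor's list rose and none fell, with a median log2 fold change of 1.03. At an unadjusted p under 0.05 limma gave 6 of the 8 as higher and 1 as lower. AHR itself differed by 0.17 (adjusted p = 0.28). Of the 22 tested conjugation and export genes 4 rose and none fell (limma, 13 higher and 2 lower at an unadjusted p under 0.05). They include ABCC2, the transferase GSTP1 at 813 ± 65.7 TPM with AE, against 421 ± 11.6 TPM in untreated cells (SD, n = 3 each), and the pump ABCC5 (0.74). AKR1C3 (log2 fold change 1.55) and AKR1B1 (0.80) rose among 5 tested aldo-keto reductases, which reduce aldehydes and ketones. AKR1C3 is close in sequence to its neighbours in the family, so its reads may be shared with them.

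ARRDC4, an arrestin that restrains glucose uptake and is induced by the glucose sensor MondoA, had the largest log2 fold change of the genes for known proteins among the 15 largest rises. It had 10.9, 12.5 and 6.77 TPM with AE, against 0.6, 0.98 and 1.23 TPM in untreated cells. AE 3 was lower than the other two AE libraries but stood well above all untreated ones. Its log2 fold change was 2.86 (SE 0.207, adjusted p = 2.75e-07). Its sister TXNIP did not pass the filter and was at or under 0.04 TPM in all 6 libraries. The MondoA gene MLXIP (-0.13) and its partner MLX (-0.23) were not called. Of 6 tested genes in the list ARRDC4 was the only one that changed.

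**Figure D2:**
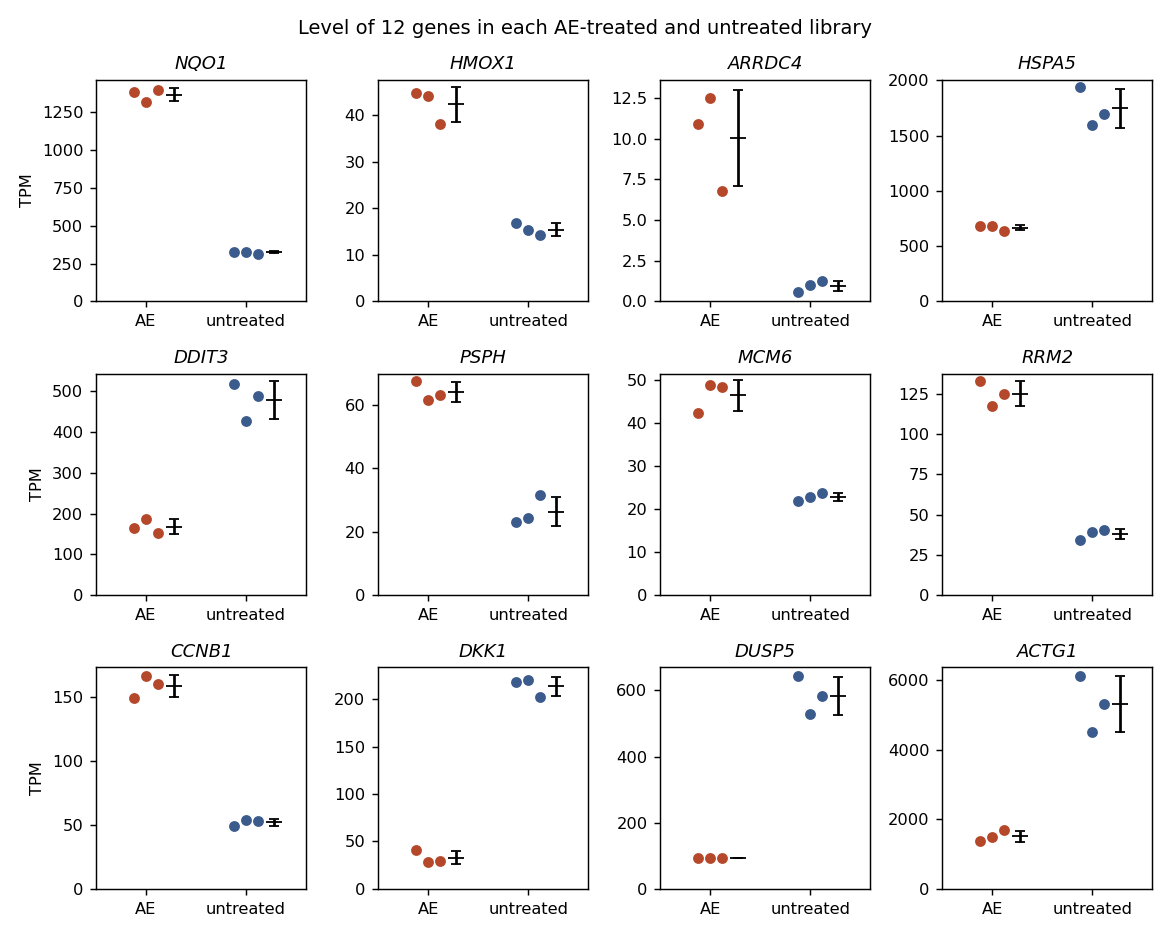
TPM (vertical axes, linear from 0) of 12 genes in each AE library and each untreated library, with points for libraries and mean ± SD (n = 3) beside them. In each panel the groups are apart, AE above untreated for NQO1, HMOX1, ARRDC4, PSPH, MCM6, RRM2 and CCNB1 and below it for HSPA5, DDIT3, DKK1, DUSP5 and ACTG1.

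Genes for folding proteins in the endoplasmic reticulum went the other way. HSPA5 (ENSG00000044574, chr9:125234853-125241382), the lumenal chaperone BiP, had 679.7, 683 and 639 TPM with AE, against 1939.9, 1599.8 and 1699 TPM in untreated cells. All AE libraries were far below the lowest untreated one. That is a log2 fold change of -1.38 (SE 0.0646, adjusted p = 8.97e-09). DNAJB9, a co-chaperone of HSPA5, had 14.9, 17.5 and 16.3 TPM with AE, against 36.9, 36.6 and 35.8 TPM in untreated cells (log2 fold change -1.14). EDEM1 (-1.01) and HERPUD1 (-0.87), which act in the removal of misfolded proteins, the secreted factor MANF (-0.86) and the stress sensor kinase EIF2AK3 (-0.75) fell as well. In all, 6 of the 29 tested genes fell and none rose. The list had a median log2 fold change of -0.26, 28 of its 29 members were below 0, and at an unadjusted p under 0.05 limma gave 21 as lower and 0 as higher.

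The promoter of HSPA5 is shown for the ER stress element, a site of the ATF6 branch of the unfolded protein response made of CCAAT, a spacer and CCACG. The window from 150 to 41 bases before the RefSeq start (GRCh38.p14, chr9:125241384-125241493, minus strand) has the element in capitals.
HSPA5: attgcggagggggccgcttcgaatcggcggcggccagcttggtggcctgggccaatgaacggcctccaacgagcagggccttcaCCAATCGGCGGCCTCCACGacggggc
The element was found in 14 of the 10543 promoters (0.133%) and in 6 of the 27 promoters of the folding list (22.2%). None of the 1166 promoters of risers and 2 of the 604 promoters of fallers (0.331%) held it. The fallers DNAJB9, HERPUD1 and MANF did not hold it in this window, while HSP90B1, CALR and CRELD2 held it and were not called. The letters CCAAT alone were in 36.8% of all promoters and in 85.2% of those of the list.

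Targets of ATF4, the factor of the amino acid response, were split. DDIT3, which encodes CHOP and promotes cell death under lasting stress, had 164, 188 and 152 TPM with AE, against 518, 427 and 489.5 TPM in untreated cells (log2 fold change -1.51, SE 0.108, adjusted p = 2.58e-07), and ATF3 was at 42.9 ± 5.57 TPM with AE, against 119.9 ± 8.98 TPM in untreated cells (SD, n = 3 each). Both fell with no overlap. The genes of serine synthesis rose. PSPH, its last enzyme, had 67.5, 61.5 and 62.95 TPM with AE, against 23.1, 24.3 and 31.6 TPM in untreated cells (log2 fold change 1.28, SE 0.121, adjusted p = 2.58e-06). PHGDH (0.94) and PSAT1 (0.80), the steps before it, the mitochondrial PEP carboxykinase PCK2 (1.10), SLC7A11 and the glutathione-degrading enzyme CHAC1 (0.72) rose with it. In all, 7 of 23 tested members rose and 2 fell, with a median log2 fold change of 0.21.

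Chaperones of the cytosol differed from those of the endoplasmic reticulum in direction. HSPA8, the constitutive HSP70, was at 732 ± 52.1 TPM with AE, against 429.9 ± 19.2 TPM in untreated cells, and HSP90AA1 at 1190.1 ± 80.1 against 726 ± 35.6 TPM (SD, n = 3 each). With DNAJA1 (0.76) among them, 6 of 18 tested members rose and none fell. Limma gave 14 of the 18 as higher and 1 as lower at an unadjusted p under 0.05. Of 35 tested proteasome genes 5 rose and none fell, with PSMD1 (0.76) among them. Limma gave 32 as higher and 0 as lower at an unadjusted p under 0.05, and 30 and 0 at an adjusted p under 0.05. Only 3 proteasome genes were called higher with median-ratio scaling, and 2 after quantile normalization.

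Nearly all tested genes that copy DNA rose. Of 41 replication genes 38 rose and none fell, far above the background of 10.7%, with a median log2 fold change of 1.09. Between the groups 40 did not overlap, beside 48.9% of all tested genes. All 41 were positive. MCM6, a subunit of the replicative helicase, had 42.3, 48.7 and 48.2 TPM with AE, against 21.9, 22.7 and 23.8 TPM in untreated cells. Every AE library was well above every untreated one. This gave a log2 fold change of 1.01 (SE 0.0724, adjusted p = 2.65e-07). Its partner MCM2 (1.27) and MCM5 (1.64) and the helicase cofactors GINS2 (1.37) and CDC45 (1.66) rose as well. PCLAF, a partner of the sliding clamp, had 38.98, 49.9 and 59.3 TPM with AE, against 15.7, 8.93 and 12.1 TPM in untreated cells (log2 fold change 1.99). ASF1B, a histone chaperone of the fork, had 44.95, 47.3 and 53.7 TPM with AE, against 12.7, 14.01 and 14.3 TPM in untreated cells (log2 fold change 1.80). Both stood among the 15 largest rises. FEN1, which trims Okazaki fragments, had 74.4, 74.3 and 84.7 TPM with AE, against 22.98, 28.7 and 24.3 TPM in untreated cells (log2 fold change 1.602), and the clamp PCNA rose by a log2 fold change of 1.19.

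The supply of deoxynucleotides moved with them. RRM2, the regulated subunit of ribonucleotide reductase, had 133, 117 and 125 TPM with AE, against 34.2, 39.04 and 40.2 TPM in untreated cells (log2 fold change 1.71, SE 0.0713, adjusted p = 3.34e-09). Thymidine kinase TK1 had 130.1, 148 and 172 TPM with AE, against 50.7, 50.1 and 58.6 TPM in untreated cells (log2 fold change 1.49). Neither gene overlapped between the groups. Thymidylate synthase TYMS (1.17), RRM1 (0.75), DUT (0.85) and DCTPP1 (0.70) also rose. In all, 8 of 9 tested members rose and none fell. Limma gave 0 as lower at an unadjusted p under 0.05.

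Upstream of replication, 15 of 28 tested genes of E2F and G1 control rose and 1 fell. E2F1, the activator that names the programme, had 11.6, 11.8 and 13.5 TPM with AE, against 5.72, 5.74 and 5.97 TPM in untreated cells (log2 fold change 1.02). E2F2 (1.54), cyclin E2 CCNE2 (1.498), cyclin A2 CCNA2 (1.08), the phosphatase CDC25A (1.07) and CDK2 (0.92) rose, and so did the repressors E2F7 (0.96) and E2F8 (1.14). Cyclin D1, CCND1, at 169 ± 5.55 TPM with AE, against 182 ± 11.2 TPM in untreated cells, was not called. The faller was CDKN1A, the p21 inhibitor of cyclin-dependent kinases, which had 148, 149 and 157 TPM with AE, against 262, 241 and 273 TPM in untreated cells. All AE libraries were well under all untreated ones. The log2 fold change was -0.77 (SE 0.0724, adjusted p = 2.43e-06).

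The promoter of MCM6 is shown because it carries the E2F letters at 2 places. The 160 bases before its RefSeq start (GRCh38.p14, chr2:135876444-135876603, minus strand) are printed with both places in capitals, each made of 2 overlapping matches on opposite strands (TTTGGCGC and GCGCGAAA as read here).
MCM6: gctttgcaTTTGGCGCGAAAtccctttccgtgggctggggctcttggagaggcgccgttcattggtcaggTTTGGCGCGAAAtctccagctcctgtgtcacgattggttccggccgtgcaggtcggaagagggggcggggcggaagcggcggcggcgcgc
An E2F site, searched as TTTCCCGC, TTTCGCGC, TTTGCCGC or TTTGGCGC on both strands, was in 5.48% of all promoters, in 9.26% of those of risers and 2.81% of those of fallers. It was in 19 of 36 replication promoters (52.8%). The risers PCLAF, ASF1B, FEN1, CDC45 and RRM2 had no match in this window.

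Genes of mitosis changed as broadly, with 51 of 55 tested members higher and none lower and a median log2 fold change of 0.96. Of the 55, 53 did not overlap between the groups, beside 48.9% of all tested genes. CCNB1, the cyclin of mitotic entry, had 149, 166 and 160.4 TPM with AE, against 49.1, 53.6 and 53.4 TPM in untreated cells. All AE values were far above all untreated ones. For CCNB1 the log2 fold change was 1.599 (SE 0.0565, adjusted p = 1.09e-09). CCNB2, the other B cyclin, had 63.9, 56.5 and 62.9 TPM with AE, against 29.8, 30.5 and 32 TPM in untreated cells (log2 fold change 0.98), again without overlap. AURKB, a kinase that corrects attachments of chromosomes to the spindle, had 82.8, 78.9 and 72.98 TPM with AE, against 33.6, 43.7 and 35.1 TPM in untreated cells (log2 fold change 1.06). The transcription factors MYBL2 (1.36) and FOXM1 (1.29), the motor KIF22 (1.06), the kinetochore proteins NDC80 (1.42) and SPC25 (1.43) and the kinases AURKA (1.27) and PLK1 (1.14) were among the others that rose. The tubulin regulator STMN1, at 386 ± 10.4 TPM with AE, against 215 ± 31.1 TPM in untreated cells (SD, n = 3 each), and TUBA1B, at 1054 ± 37.5 against 459 ± 14.6 TPM, rose too (log2 fold changes 0.85 and 1.20). TUBA1B shares much of its sequence with other alpha-tubulin genes.

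The promoter of CCNB2 is shown for the letters that mark mitotic genes. The window from 150 to 21 bases before the RefSeq start (GRCh38.p14, chr15:59104996-59105125, plus strand) has 3 CCAAT boxes and 1 cell cycle homology region (CHR), TTTGAA, in capitals.
CCNB2: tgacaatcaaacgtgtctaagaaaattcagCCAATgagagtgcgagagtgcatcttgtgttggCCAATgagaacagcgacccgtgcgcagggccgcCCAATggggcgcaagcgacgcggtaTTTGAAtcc
The CHR, searched as TTTGAA or TTCGAA on both strands, was in 10.7% of all promoters, in 187 of the 1166 of risers and in 64 of the 604 of fallers (10.6%). It was in 32 of 45 mitosis promoters (71.1%), and CCAAT was in the same share, 71.1%, against 36.8% of all promoters. The risers CCNB1 and AURKB held CCAAT but no CHR in this window.

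Repair and chromatin genes went in the same direction. EXO1, an exonuclease of mismatch and break repair, had 16.6, 16.2 and 20.1 TPM with AE, against 5.03, 7.26 and 6.34 TPM in untreated cells (log2 fold change 1.44, SE 0.149, adjusted p = 5.88e-06). The groups did not overlap. BRCA1 (1.27), BRCA2 (1.24), FANCI (1.06) and FANCA (0.98) also rose. In all, 21 of 30 tested repair genes rose and none fell (limma, 0 lower at an unadjusted p under 0.05), with a median log2 fold change of 0.77. Among genes of chromatin and DNA methylation 12 of 20 rose and none fell (limma, 0 lower at an unadjusted p under 0.05). They include lamin B1, LMNB1, at 71.9 ± 2.54 TPM with AE, against 25.3 ± 3.995 TPM in untreated cells (SD, n = 3 each), HMGB2 (1.38), the damage histone H2AX (1.66) and the remodeller HELLS (1.11). Histone genes are mostly not polyadenylated and only 8 of 36 were tested after poly(A) capture. Of these, 1 rose (H4C14, 1.10) and 2 fell, H1-2 (-0.76) and H2BC5 (-0.85), the second of which was not called without AE 2 (-0.55). In bulk RNA a larger share of cells in S phase or mitosis and more of these RNAs per cell cannot be told apart, nor for any list here can fewer cells of a state and less RNA per cell.

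Targets of p53 fell in part. Of 27 tested, 7 fell and 2 rose, beside a background of 5.81% lower, with a median log2 fold change of -0.24. GDF15, a secreted stress signal, was at 358 ± 26.9 TPM with AE, against 616 ± 47.7 TPM in untreated cells (SD, n = 3 each), and GADD45A (-0.73), PLK2 (-0.85), PLK3 (-0.74) and AEN (-0.69) fell beside CDKN1A. The death receptor FAS (0.89) and the oxidoreductase TP53I3 (0.74) rose. Among 30 tested apoptosis genes 5 rose and 2 fell, beside 10.7% higher and 5.81% lower over all tested genes. The risers include the caspase CASP6 (0.93), the BH3 protein BCL2L11 (0.73) and FAS, and the fallers are the inhibitor BIRC3 (-1.03) and the death receptor TNFRSF10B (-0.59), the second of which was not called without AE 3 (-0.55), untreated 1 (-0.56) or mitochondrially encoded genes (-0.57) or with the GC and length correction (-0.58). Only 3 were called higher with median-ratio scaling.

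Actin genes were among the most abundant that fell. ACTG1, cytoplasmic gamma-actin, had 1364, 1486 and 1683 TPM with AE, against 6121, 4513 and 5307 TPM in untreated cells. Even the highest AE library was far under the lowest untreated one. The log2 fold change was -1.81 (SE 0.113, adjusted p = 9.39e-08). ACTB, beta-actin, had 698, 669.7 and 772 TPM with AE, against 2035, 1798 and 1888 TPM in untreated cells (log2 fold change -1.42, SE 0.0693, adjusted p = 1.3e-08). Both actins have many processed copies in the genome, and RSEM divides reads that match more than 1 copy by an estimate. Of 27 tested actin cytoskeleton genes 15 fell and none rose (limma, 20 lower and 3 higher at an unadjusted p under 0.05), with a median log2 fold change of -0.75. Vinculin, VCL, which ties actin to adhesions, had 43.7, 40.3 and 43.9 TPM with AE, against 101, 94.02 and 106 TPM in untreated cells (log2 fold change -1.22). The myosin light chains MYL9 (-1.29) and MYL12A (-0.82), the heavy chain MYH9 (-0.87), the crosslinkers FLNA (-1.17) and ACTN4 (-0.75), zyxin ZYX (-0.96) and transgelin TAGLN (-0.81) fell with it. SRF, the factor that drives actin genes, fell as well (-0.96), as did ezrin, EZR, which links actin to the membrane, at 883 ± 30.02 TPM with AE, against 1662 ± 21.4 TPM in untreated cells.

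The promoter of ACTG1 is shown for its CArG box, the element that SRF binds. The window from 150 to 53 bases before the RefSeq start (GRCh38.p14, chr17:81512852-81512949, minus strand) has the box in capitals.
ACTG1: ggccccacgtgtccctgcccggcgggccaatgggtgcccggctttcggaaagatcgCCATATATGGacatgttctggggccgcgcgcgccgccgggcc
The box was looked for after the levels of actin genes had been seen. It was in 0.967% of all promoters, 0.772% of those of risers, 2.98% of those of fallers and in 5 of 23 of the actin list (21.7%). Among the fallers FLNA held it in this window and VCL did not. The AP-1 site, TGACTCA or TGAGTCA, was in 3.07% of all promoters, 2.14% of those of risers and 6.62% of those of fallers.

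CCN1, a matricellular protein and the best known target of YAP, had 9.81, 11.2 and 9.37 TPM with AE, against 62.8, 60.7 and 64.8 TPM in untreated cells. The groups were far apart, with little spread in either. CCN1 fell with a log2 fold change of -2.58 (SE 0.0997, adjusted p = 1.88e-09). CCN2 (-2.07), ANKRD1 (-1.77), AMOTL2 (-1.48), the receptor kinase AXL (-1.26), the kinase LATS2 (-0.88) and the ectonucleotidase NT5E (-0.77) fell too. In all, 11 of 21 tested genes of this list fell and 1, the DNA-binding partner TEAD2 (0.77), rose, with a median log2 fold change of -0.67. TGF-beta targets share CCN2 with it. There 7 of 21 fell, with the feedback genes PMEPA1 (-1.23), SMAD7 (-0.93) and SKIL (-0.67) among them. BMP4 rose (0.83). Of the TGF-beta fallers, 3 were called when only genes with a mean of at least 5 TPM were tested.

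Keratins and adhesion genes fell next to actin. KRT80 had 10.7, 9.22 and 9.58 TPM with AE, against 72.8, 58.5 and 65.5 TPM in untreated cells (log2 fold change -2.68, SE 0.0887, adjusted p = 7.48e-10). KRT7 was at 35.6 ± 6.93 TPM with AE, against 144 ± 9.75 TPM in untreated cells (SD, n = 3 each), and KRT15 at 12.7 ± 2.74 against 59.6 ± 2.46 TPM. These 3 keratins stood among the 15 largest falls. Of 37 tested genes for junctions and keratins 15 fell and 2 rose, with a median log2 fold change of -0.36. The laminin chain LAMB3 (-1.40), the integrin ITGA3 (-0.92), occludin OCLN (-0.85) and claudin CLDN4 (-0.79) were fallers, and desmocollin DSC2 (0.84) and KRT23 (0.89) were the risers. KRT81 (-1.35) and KRT86 (-1.63) fell but are nearly identical, so their reads cannot be told apart with confidence. KRT8, KRT18 and KRT19, the abundant keratins of simple epithelium that also serve as markers of it, were at 1000.4 ± 49.7, 702 ± 21.6 and 513 ± 31.3 TPM with AE, against 1563 ± 42.97, 1204 ± 72.97 and 1072 ± 17.03 TPM in untreated cells. The summed level of the 12 epithelial markers was 2865 to 3031 TPM with AE and 4652 to 4744 TPM in untreated cells, and these 3 keratins made up most of it. Of 9 tested markers 4 fell, these keratins and CLDN4. The other 5, EPCAM, CDH1, CLDN3, CLDN7 and CDX2, overlapped between the groups and were not called. The part of this shift in the junction list was not tested. Genes of mesenchymal character and invasion changed in the same direction. Of 21 tested, 8 fell, with thrombospondin THBS1 (-2.02), the inhibitor TIMP2 (-1.30) and the protease urokinase PLAU (-1.28) among them, and 1, the hyaluronan-degrading CEMIP, rose, with 10.6, 8.79 and 7.89 TPM with AE, against 1.8, 1.8 and 1.95 TPM in untreated cells (log2 fold change 2.02).

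Signalling lists held a few large changes. DUSP5, a nuclear phosphatase that ERK induces and that ends ERK signalling, had 94.8, 94.6 and 94.3 TPM with AE, against 642, 528 and 583 TPM in untreated cells. The 3 AE libraries were nearly equal and far below the lowest untreated one. The log2 fold change was -2.62 (SE 0.0940, adjusted p = 1.09e-09). EPHA2 (-1.58), SPRY1 (-0.97), HBEGF (-0.80) and EGFR (-0.67) fell among 34 tested ERK pathway genes, 5 in all. The ligand BTC (1.01) was among the 3 that rose. Among 20 tested AP-1 and immediate early genes 8 fell and 2 rose, with JUN (-0.98), FOSL1 (-0.69), NR4A1 (-1.68) and KLF4 (-1.20) lower and KLF10 (1.02) and KLF2 (1.75) higher.

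DKK1, a secreted inhibitor of WNT signalling, had 40.8, 28.5 and 29.7 TPM with AE, against 218, 220.5 and 202 TPM in untreated cells. AE 1 was the highest of its group and still far below every untreated library. DKK1 fell with a log2 fold change of -2.69 (SE 0.107, adjusted p = 2.16e-09). AXIN2, a feedback target of the same pathway, had 6.89, 7.34 and 8.15 TPM with AE, against 2.52, 3.72 and 2.95 TPM in untreated cells (log2 fold change 1.17), and the factor TCF7 rose (0.71). No other gene of the 17 tested in the WNT list changed. Its 2 risers and 1 faller are near the shares over all tested genes, 10.7% and 5.81%. MYC, a WNT target in the colon, fell, with 248, 222 and 227 TPM with AE, against 365, 363 and 363 TPM in untreated cells (log2 fold change -0.65). Of 33 tested TNF and NF-kB genes 7 fell and 2 rose, with LCN2 (-1.13), EDN1 (-1.65) and GADD45B (-1.25) lower and the inhibitor NFKBIA (0.69) higher. Of 32 interferon and MHC genes 5 fell, with the checkpoint protein VSIR (-1.92) and IFITM3 (-0.78) among them, and OAS3 (1.14) and IRF1 (0.83) rose. With median-ratio scaling 8 of this list were called lower.

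**Figure D3:**
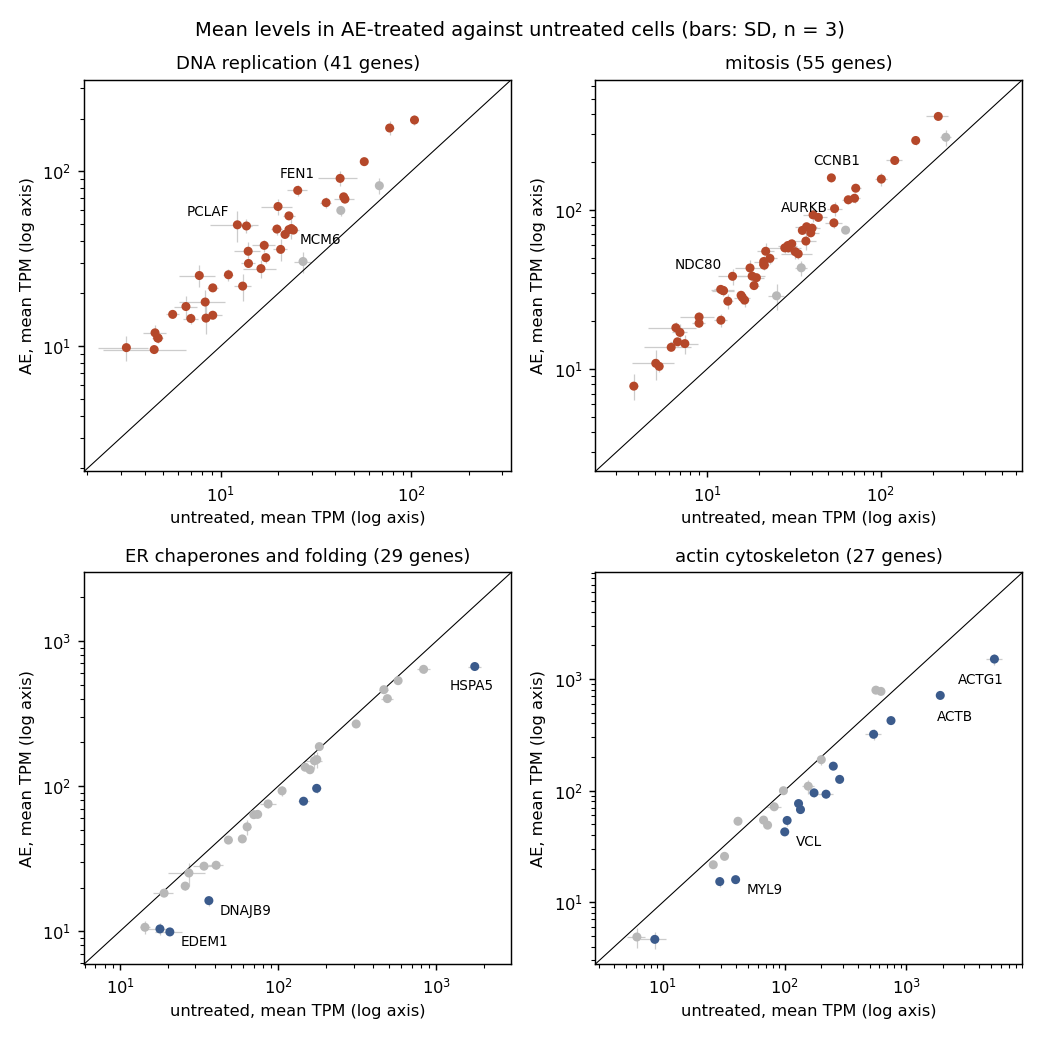
Mean TPM with AE (vertical axis) against mean TPM in untreated cells (horizontal axis, both log) for the tested members of 4 gene lists, n = 3 libraries each, bars for SD, coloured as called higher (red), called lower (blue) or not called (grey), with the diagonal of equal levels. Replication and mitosis genes lie above the diagonal at all levels, and actin and endoplasmic reticulum folding genes lie mostly below it.

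Few genes of oxidative phosphorylation passed the fold threshold as well as the test. Of 37 nuclear genes of complex I 3 rose, with NDUFA11 (0.65) among them, and none fell, with a median log2 fold change of 0.23. Limma gave 25 as higher and 2 as lower at an unadjusted p under 0.05, and 21 and 2 at an adjusted p under 0.05. With median-ratio scaling none was called, with quantile normalization 1 was higher and 1 lower, and with the GC and length correction 5 were higher. Of 40 genes of complexes II to V none was called by limma, with 15 higher and 4 lower at an unadjusted p under 0.05. Over all 14899 tested genes 7098 reached that level in either direction. At an adjusted p under 0.05 limma gave 11 of the 40 as higher and 4 as lower, all under the fold threshold. Over all tested genes it gave 3846 and 2079. The ATP synthase subunits ATP5PD, at 479 ± 39.4 TPM with AE, against 332 ± 8.77 TPM in untreated cells, and ATP5MC3, at 245 ± 19.6 against 165 ± 15.5 TPM (SD, n = 3 each), lay close under the fold threshold. Of the 13 genes of the mitochondrial genome 3 rose, MT-CYB, MT-ND2 and MT-ND6. MT-CYB, of complex III, had 6794, 6734 and 6737 TPM with AE, against 3399, 4252 and 3863 TPM in untreated cells (log2 fold change 0.82, SE 0.102, adjusted p = 2.98e-05), and MT-ND2, of complex I, had 5812, 5503 and 5466 TPM with AE, against 2876, 3535 and 3234 TPM in untreated cells (log2 fold change 0.80). MT-RNR2, the large mitochondrial ribosomal RNA, which poly(A) capture retains in part, had 7388, 7489.5 and 7113 TPM with AE, against 14627, 14723 and 13914 TPM in untreated cells (log2 fold change -0.98), so RNAs of the same genome moved in both directions. Together the mitochondrially encoded genes held 18.4% ± 0.682 of TPM with AE and 16.9% ± 1.56 in untreated cells (SD, n = 3 each, exact permutation test, two-sided p = 0.3).

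Of 75 mitochondrial ribosomal protein genes 9 rose and none fell, beside 10.7% higher and 5.81% lower over all tested genes. MRPL23 (1.26) and MRPL13 (0.89) were among the risers. The count of risers was 5 with median-ratio scaling. Limma gave 52 as higher and 2 as lower at an unadjusted p under 0.05, and 45 and 1 at an adjusted p under 0.05. The median log2 fold change was 0.30. Of 32 genes of mitochondrial biogenesis and dynamics 3 rose and 2 fell, near the shares over all tested genes (10.7% and 5.81%). With median-ratio scaling 1 rose and 3 fell. TFAM, which packs and transcribes mitochondrial DNA, had 44.02, 40.2 and 41.6 TPM with AE, against 27, 25.6 and 30.4 TPM in untreated cells (log2 fold change 0.59, SE 0.0998, adjusted p = 0.000361), just past the fold threshold. It was not called with median-ratio scaling (0.50), nor without AE 1 (0.56), untreated 1 (0.58) or untreated 2 (0.54). The import pore TOMM40 rose (0.72). The nuclear receptor PPARG had 22.98, 22.8 and 18.5 TPM with AE, against 35.1, 36.1 and 40.01 TPM in untreated cells (log2 fold change -0.78, SE 0.0902, adjusted p = 1.55e-05), and fell. The fusion proteins MFN1 (0.23) and MFN2 (0.032), the fission factor MFF (-0.061), the outer membrane receptor TOMM20 (-0.071) and the transcription factors NRF1 (0.10), GABPA (0.28), FOXJ3 (-0.26), MEF2A (-0.30) and MEF2C (-0.037) were not called.

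In central metabolism most lists held changes in both directions, beside 10.7% higher and 5.81% lower over all tested genes. Of 28 genes of the TCA cycle 3 rose, with fumarase FH (0.67) among them, and PC (-0.75), which feeds the cycle from pyruvate, fell. None was called higher with median-ratio scaling. Of 31 glycolysis and hypoxia genes 4 rose and 3 fell, with triosephosphate isomerase TPI1 at 619 ± 25.5 TPM with AE, against 337 ± 9.79 TPM in untreated cells (SD, n = 3 each), and the glucose carrier SLC2A3 (-1.14) and hexokinase HK2 (-0.90) lower. Of 26 genes of sterol synthesis 4 rose, with FDPS (0.84) among them, and 2 fell, with LPIN1 (-0.75) among them. Only 2 were called higher with median-ratio scaling. The fatty acid carrier FABP5 (1.01), ACSL5 (0.96) and CPT2 (0.86) rose among 24 genes of fatty acid metabolism. Of 31 lysosome and autophagy genes 7 rose, with the galactosidase GLA (1.14) and the membrane protein LAMP1 (0.93) among them, and ATG12, which takes part in autophagosome growth, had 124, 147 and 147 TPM with AE, against 426, 314 and 346 TPM in untreated cells (log2 fold change -1.36).

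Cytosolic ribosomal protein genes shifted together by small steps. None of 78 was called, since none passed the fold threshold. Limma gave 48 as lower and 0 as higher at an unadjusted p under 0.05, and 38 and 0 at an adjusted p under 0.05. In all, 74 were negative, and the median log2 fold change was -0.20. RPL12, with 5102, 5180.5 and 5006 TPM with AE, against 6643, 7004 and 6497 TPM in untreated cells (log2 fold change -0.40, adjusted p = 1.51e-05), shows the size. As a group they held 24.4% ± 0.979 of TPM with AE and 28.1% ± 1.23 in untreated cells, and 29.9% ± 1.01 and 33.8% ± 0.868 of the TPM outside the mitochondrial genome (SD, n = 3 each). The exact permutation test gave a two-sided p of 0.1 for both, the smallest that 3 against 3 libraries allow. Of 36 ribosome biogenesis genes 3 rose, with PES1 (0.72) first, and none fell (limma, 18 higher and 5 lower at an unadjusted p under 0.05). With median-ratio scaling 1 was called higher. None of 20 aminoacyl-tRNA synthetases was called by limma (7 higher and 3 lower at an unadjusted p under 0.05) and none of 14 host genes of small nucleolar RNAs (2 higher and 9 lower). No member of either list passed the fold threshold. At an adjusted p under 0.05 limma gave 6 synthetases as higher and 3 as lower, and 2 host genes as higher and 7 as lower. Over all 14899 tested genes it gave 3846 as higher and 2079 as lower. With median-ratio scaling 4 of these host genes were called lower.

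Among the largest changes outside the lists, the monocarboxylate carrier SLC16A6 had 5.17, 5.3 and 6.48 TPM with AE, against 0.86, 1.25 and 1.85 TPM in untreated cells (log2 fold change 1.79), and the coiled-coil gene CCDC18 had 10.6, 10.6 and 10.3 TPM with AE, against 4.15, 2.1 and 1.6 TPM in untreated cells (log2 fold change 1.90). Both rose without overlap. Among the falls CPA4, a carboxypeptidase, had 8, 5.85 and 7.53 TPM with AE, against 39.1, 36.95 and 33.6 TPM in untreated cells (log2 fold change -2.29), and CD68, a lysosomal protein best known from macrophages, had 2.88, 1.58 and 2.74 TPM with AE, against 16.4, 17.3 and 16.8 TPM in untreated cells (log2 fold change -2.61). PTPRC, which marks leukocytes as a class, was at or under 0.03 TPM in the same libraries. LVRN (-2.45), the cardiac troponin TNNT2 (-2.24) and TENT5B (-1.96) followed. Of the 15 largest rises 5 were RNAs with canonical transcripts of 149 to 261 bases (MIR1307 and SRP9P1 among them), and SNORA22B, of 138 bases, was listed at 0 TPM in all AE libraries, against 26.8, 19.1 and 36.6 TPM in untreated cells. A library of captured and fragmented mRNA covers such short RNAs poorly. TMED7-TICAM2, one of the largest falls, is a readthrough gene whose exons belong to its neighbours, and KLRK1-AS1 (2.09) lies in a cluster of overlapping genes, so the assignment of their reads is uncertain. Among abundant genes, ubiquitin UBB (0.76) and the histone H3-3B (0.83) rose and the chromatin protein HMGA1 (-0.73) fell.

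Few genes were called between AE and the other treatments. Against the mean of TE, SE and HTyr, 39 genes were higher with AE and 16 lower, 0.262% and 0.107% of those tested. The higher count was 22 without AE 1 and 25 with median-ratio scaling, and the lower count 8 without AE 2. The titles and the descriptions of the TE and SE samples disagree on which is which and the descriptions were followed here, a choice that does not touch any test of AE. SE was the lowest of the 4 treatments in 31 of the 39 and TE was the nearest to AE in 29. All 3 AE libraries lay above all 9 libraries of the other treatments for 13 of the 39 and below all 9 for 7 of the 16.

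Several of the genes that were highest with AE belong to glutathione supply and the amino acid response. GCLC had 120.1, 95.1 and 93.7 TPM with AE, against 44.6 to 92.2 TPM in the 9 other treated libraries (log2 difference 0.64, SE 0.105, adjusted p = 0.00505). SLC7A11 had 67.9, 73.5 and 69.99 TPM with AE, against 34.3 to 50.1 TPM in the others (log2 difference 0.70, adjusted p = 0.00027). OSGIN1, an NFE2L2 target, had 20.7, 19.4 and 21.9 TPM with AE, against 9.54 to 15.7 TPM in the others (log2 difference 0.72, adjusted p = 0.00188), but OSGIN1 in untreated cells had 28.1, 17.6 and 22.8 TPM and was not called against them (log2 fold change -0.12). In each of these genes every AE library was above every other treated one. Asparagine synthetase ASNS, an ATF4 target, had 437, 473 and 447 TPM with AE, against 180 to 382 TPM in the others (log2 difference 0.61, adjusted p = 6.74e-05). ASNS in untreated cells had 427, 358 and 396 TPM and was not called there, with a log2 fold change of 0.20. ASNS averaged 452 TPM with AE, 371 TPM with TE, 190 TPM with SE and 371 TPM with HTyr, so SE lay furthest from AE. Over the lists, 3 of 32 NFE2L2 genes and 6 of 23 ATF4 targets were called against the other treatments, beside 0.262% higher and 0.107% lower over all genes, and SLC7A11 is in both lists. In 3 other ATF4 targets among them AE did not stand apart from TE. DDIT3 averaged 168 TPM with AE, 181 TPM with TE, 41.2 TPM with SE and 168 TPM with HTyr, CHAC1 averaged 40.9, 40.1, 16.98 and 21.5 TPM in the same order, and TRIB3 147, 140.2, 41.6 and 114 TPM, with SE the lowest each time. GCLC, OSGIN1 and ASNS are named here after their values had been seen, since all 3 AE libraries lay beyond all 9 others.

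DKK1 was the clearest gene that was lower with AE than with the other treatments. Its 40.8, 28.5 and 29.7 TPM with AE compare with means of 54.1 TPM with TE, 98.8 TPM with SE and 104.5 TPM with HTyr (log2 difference from the 3 together -1.32, SE 0.0878, adjusted p = 1.24e-05). CPA4, with 8, 5.85 and 7.53 TPM with AE and means of 8.32 TPM with TE, 15.1 TPM with SE and 21.5 TPM with HTyr, was lower as well (log2 difference -0.92, adjusted p = 0.000632). Both also fell against untreated cells. NQO1, with a log2 difference of 0.51 (adjusted p = 2.97e-05), and HSPA5, with 0.25 (adjusted p = 0.0244), passed the test but not the fold threshold. NQO1 averaged 1367 TPM with AE, 841 TPM with TE, 1406 TPM with SE and 741 TPM with HTyr, so AE did not stand apart from SE. HSPA5 averaged 667 TPM with AE, 802 TPM with TE, 405 TPM with SE and 543 TPM with HTyr. No replication, mitosis, repair, actin or YAP gene was called. These tests share the AE libraries with the comparison against untreated cells, so the 2 sets of calls are not independent.

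**Figure D4:**
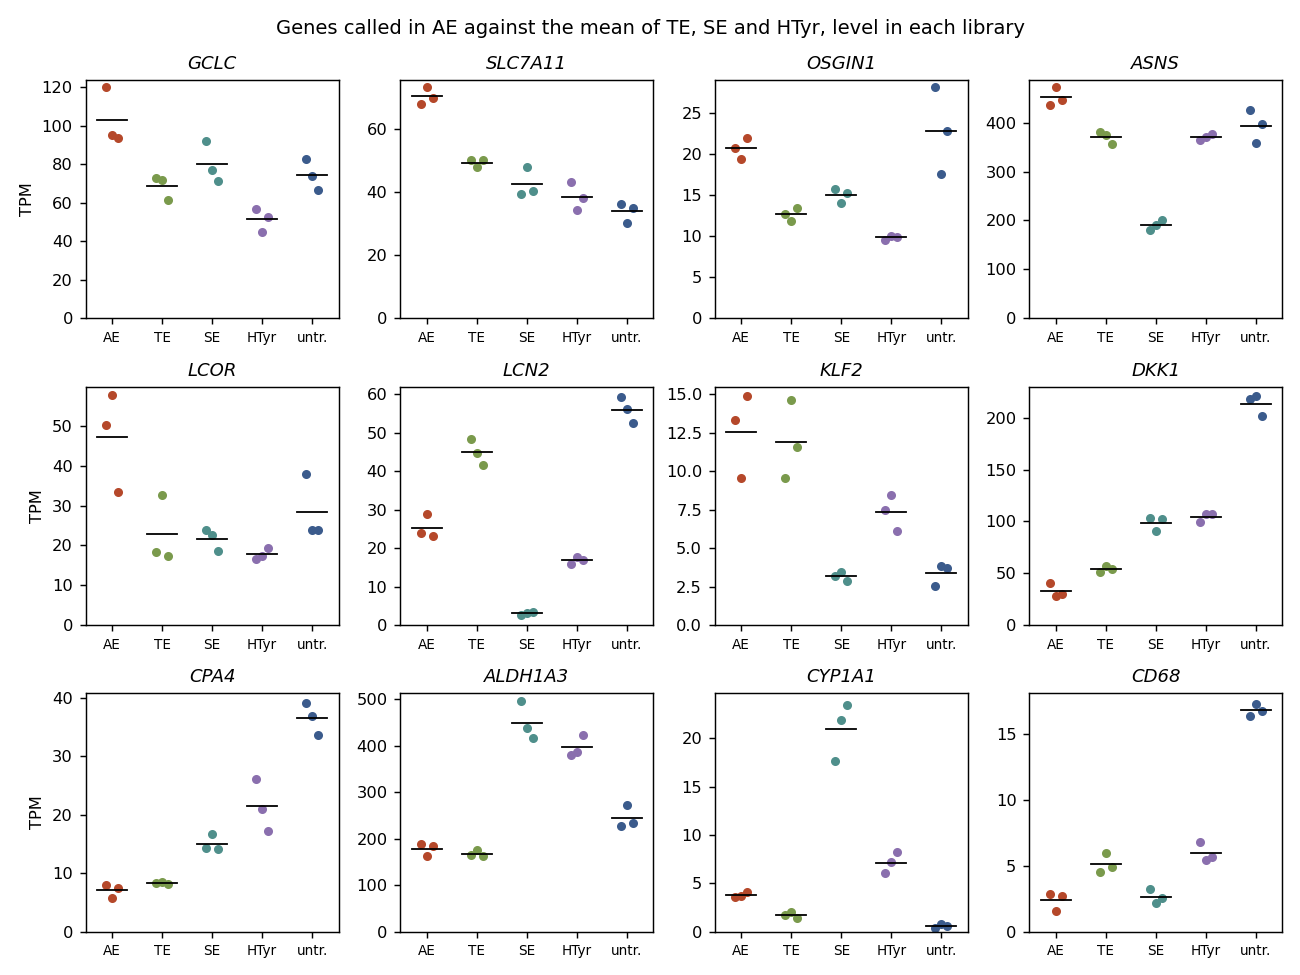
TPM of 12 genes in all 15 libraries (vertical axes, linear from 0) with AE, TE, SE and HTyr left of untreated cells, a point per library. In GCLC, SLC7A11, OSGIN1 and ASNS the 3 AE libraries sit above all other treated ones and in DKK1 and CPA4 below them, while LCN2 and KLF2 have SE as the lowest treatment.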

How the data were processed

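RNA-seq of HCT116 cells was used, with 15 libraries in 5 groups of 3, assigned from the sample labels. The authors made libraries with a stranded mRNA kit after poly(A) capture, aligned them to GRCh38 with STAR and used RSEM with Ensembl 104 (tool versions not given in the sources used here). TPM, rounded to 2 decimals, were deposited by the authors. They keep no depth, so no count model was fitted, although the authors' own tests used estimated counts. Values were analysed as log2(TPM + 0.5) for the 14899 genes that reached 1 TPM in 3 or more libraries, in 1 fit of 5 group means with limma 3.58.1 (R 4.3.3) and its trend option (residual degrees of freedom, 10). Fold changes on this scale understate those of low genes. Calls needed a Benjamini-Hochberg adjusted p under 0.05 and a fold change over 1.5 on that scale. Shares of TPM were compared with exact permutation tests.

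Gene names and coordinates are from GENCODE 44, which names 60463 of 60664 identifiers, and promoters (250 bases before to 50 after the start) from RefSeq on GRCh38.p14, matched for 10543 tested genes. Genes named in the text are the 15 largest rises and falls among called, non-overlapping genes with a mean of at least 5 TPM, the 4 smallest adjusted p of each list with up to 3 called members against its majority, the 6 highest and 6 lowest differences from the other treatments, the 8 most abundant called genes in each direction and genes the study names. Some genes that the rule selects are not reported here. Other members of lists were named after their values were seen. The members and lists were chosen with earlier results of these data known. Alternatives were other pseudocounts, filters, scalings, covariates, thresholds and left-out libraries. Figures were drawn with matplotlib 3.10.9 in Python 3.11.15.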

Additional observations from a re-analysis of the deposited data

Results flagged for a closer look

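The genes given here differed between AE and the mean of TE, SE and HTyr by the test of that difference itself (limma, adjusted p under 0.05 over 14899 genes), which means that the effects of the treatments against the shared untreated cells differed. They are the 6 highest and 6 lowest differences among called genes with a mean of at least 5 TPM with AE or over the other 3 treatments.

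Lower with AE were DKK1 by a log2 difference of -1.32, CPA4 by -0.92, ALDH1A3 by -0.79, LINC02356 by -1.23, H2BC5 by -0.75 and RNVU1-28 by -4.88. DKK1 averaged 32.98 TPM with AE, 54.1 TPM with TE, 98.8 TPM with SE and 104.5 TPM with HTyr, against 214 TPM in untreated cells. CPA4 followed the same order, with 7.13, 8.32, 15.1 and 21.5 TPM, against 36.5 TPM in untreated cells. ALDH1A3, which makes retinoic acid, averaged 179 TPM with AE, 167 TPM with TE, 449 TPM with SE and 397 TPM with HTyr, against 245 TPM in untreated cells. It was thus higher than untreated with SE and HTyr and lower with AE and TE, and against untreated cells AE was not called. LINC02356 averaged 2.51 TPM with AE, 7.75 TPM with TE, 4.01 TPM with SE and 8.17 TPM with HTyr, against 5.16 TPM in untreated cells. H2BC5 averaged 5.87 TPM with AE, 8.65 TPM with TE, 10.02 TPM with SE and 10.99 TPM with HTyr, against 10.5 TPM in untreated cells. RNVU1-28, a short variant spliceosomal RNA, was listed at 0 in all AE libraries and averaged 12.4 TPM with TE, 11.7 TPM with SE and 97.2 TPM with HTyr, against 3.05 TPM in untreated cells, of which 2 libraries were at 0 too.

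Higher with AE were LCOR by a log2 difference of 1.16, KLRC4-KLRK1 by 0.92, IL20RB by 0.88, LCN2 by 0.87, KLF2 by 0.87 and LURAP1L by 0.86. LCOR, a nuclear receptor corepressor, averaged 47.2 TPM with AE, 22.8 TPM with TE, 21.7 TPM with SE and 17.7 TPM with HTyr, against 28.5 TPM in untreated cells. In the other 5 genes SE was the lowest treatment and TE stood close to AE or above it. LCN2, an iron-binding secreted protein, averaged 25.3 TPM with AE, 44.9 TPM with TE, 3.03 TPM with SE and 16.8 TPM with HTyr, against 55.9 TPM in untreated cells. IL20RB, a cytokine receptor chain, averaged 19.6 TPM with AE, 21.2 TPM with TE, 3.97 TPM with SE and 13.3 TPM with HTyr, against 22.8 TPM in untreated cells. LURAP1L averaged 14.95, 14.2, 3.21 and 10.7 TPM in the same order, against 29.99 TPM in untreated cells. KLF2, a zinc finger factor, averaged 12.6, 11.9, 3.16 and 7.36 TPM, against 3.38 TPM in untreated cells, and KLRC4-KLRK1, a readthrough gene, 7.91, 6.75, 2.94 and 3.19 TPM, against 3.58 TPM.

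Several of these calls were lost in a smaller or altered fit, mostly with little change in the difference. RNVU1-28 was not called without AE 1, AE 2, AE 3, untreated 2 or untreated 3 (log2 difference -4.88 each). It was not called either with pseudocount 1 (-4.03), no filter (-4.88), median-ratio scaling (-4.89), quantile normalization (-4.88), the replicate number as a block (-4.88), no trend (-4.88), the GC and length correction (-4.53) or without mitochondrially encoded genes (-5.13). H2BC5 was not called without AE 1 (-0.84) or AE 2 (-0.45), with no filter (-0.75), with no trend (-0.75) or with the GC and length correction (-0.65), LCOR without AE 1 (1.10) or AE 2 (1.00), KLF2 without AE 1 (0.82) or AE 3 (0.74), and KLRC4-KLRK1 without AE 1 (0.95), AE 2 (0.91) or AE 3 (0.90).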

How the results depend on the processing

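The counts against untreated cells, 1601 higher and 865 lower, stayed within 1.5 times under other pseudocounts, no filter, both other scalings, the fit of AE and untreated libraries alone, array weights, no trend, a correction for GC content and length, and without mitochondrially encoded genes or (an alternative chosen after seeing the data) short transcripts. With a mean of at least 5 TPM 519 genes were lower, and 10 against the other treatments, because fewer genes were tested. Median-ratio scaling gave 25 genes higher against the other treatments, and the cause was not tested. A fold threshold of 1 left 437 higher and 278 lower, and 6 and 6 against the other treatments. The stricter treat test of limma left 354 and 167, and 0 and 1. Leaving out each library in turn gave 1467 to 1644 higher and 774 to 978 lower against untreated cells, and 22 to 42 and 8 to 16 against the other treatments. The ribosomal share difference was -3.72 percentage points (-4.34 to -3.12 without single libraries) and the mitochondrial one 1.53 (0.887 to 2.40).

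With the replicate number as a block 1588 genes were higher and 851 lower, and 37 and 15 against the other treatments. Deviations of same-numbered AE and untreated libraries correlated at -0.028, -0.043 and 0.016, and not every library correlated best with its own number, so the numbers were not taken as a pairing.

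Beside stricter thresholds, other settings lost part of the 2466 calls against untreated cells. Of these, 2065 stayed called in the same direction with median-ratio scaling and 2107 after quantile normalization. With the GC and length correction 2114 stayed (14857 genes tested). Leaving out 1 library kept from 2101 (without untreated 1) to 2206 (without AE 1). Among the named genes, FH (0.58), NDUFA11 (0.55) and TFAM (0.50) were some that lost their calls with median-ratio scaling. KRT8 (-0.46) lost its call after quantile normalization, EGFR (-0.52) with the GC and length correction and H2BC5 (-0.55) without AE 2. FTH1 (0.66) and FTL (0.66) were called higher after quantile normalization and FTL without untreated 1 (0.59), ATP5MC3 without AE 1 (0.63), without untreated 3 (0.64) and without mitochondrially encoded genes (0.60), and ATP5PD without AE 1 (0.60). Genes that were never called changed sign. MFN2 was at -0.062 with median-ratio scaling and -0.064 after quantile normalization, and MLXIP at 0.044 with the GC and length correction. Without single libraries MFN2 ranged over -0.013 to 0.075, OSGIN1 over -0.29 to 0.043 and MEF2C over -0.16 to 0.13. TPM keep no depth, so counting error is not known.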

Other observations

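Genes of the metallothionein and iron list, of the MYC network and of the glycolysis and hypoxia list are given here. Among 16 tested genes of metallothioneins and iron handling 1 rose, MT1F, with 6.17, 6.72 and 4.68 TPM with AE, against 3.76, 3.81 and 2.46 TPM in untreated cells (log2 fold change 0.73, not called without AE 1, 0.69, AE 2, 0.63, or untreated 3, 0.55), and none fell (limma, 9 higher and 2 lower at an unadjusted p under 0.05). Of 10 tested genes of the MYC network 1 rose and 2 fell. In the MYC network MXD1, a partner of MAX that opposes MYC, was at 3.55 ± 0.663 TPM with AE, against 5.64 ± 0.162 TPM in untreated cells (SD, n = 3 each), and fell (log2 fold change -0.61, not called without AE 2, -0.51), while MXD3 of the same family rose (0.75, not called with median-ratio scaling, 0.66, or without AE 1, 0.61, AE 3, 0.75, untreated 1, 0.74, or untreated 3, 0.71). MXD3 is best known from proliferating cells in S phase. The inducible oxygen sensor EGLN3 (0.999) and the peptide gene ADM (0.86), both hypoxia targets, rose, while NDRG1, another, had 85.1, 61.4 and 65.5 TPM with AE, against 119, 141 and 123 TPM in untreated cells (log2 fold change -0.86) and fell.

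Other promoter letters were searched too, with no test. The cAMP element, TGACGTCA, was in 3.29% of all promoters, 3.17% of those of risers and 3.64% of those of fallers. An E-box, CACGTG, looked for after the values had been seen, was in 10.2%, 10.8% and 8.61%, and the carbohydrate response element of MondoA in 3.80%, 3.69% and 4.64%. The sterol element, TCACCCCAC or TCACGCCAC, was in 0.617% of all promoters (65), 0.257% of those of risers (3) and 1.32% of those of fallers (8), and the ATF4 element, TGATGNAAT, in 0.465% (49), 0.172% (2) and 0.331% (2).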
